A study of Homo sapiens with 4 samples.

Results

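The 10 genes described here encode the MYC, MAX and MXD network of transcription factors: the MYC proteins MYC, MYCL and MYCN, their partner MAX, the MAX partners MGA, MNT, MXD4 and MXI1, and the parallel pair MLX and MLXIP. They were chosen by symbol, and all 10 were found among the 21372 genes of the count table. The samples were 2 P5CS immunoprecipitate libraries (P5CS IP) and 2 input libraries of NCI-H1299 cells, a human non-small cell lung cancer line, and no genotype or treatment beyond the antibody pull-down is given for either group. P5CS is the product of ALDH18A1, an enzyme of mitochondria that makes the precursor of proline, and the question of the series is which RNAs are bound to it. RNA recovered together with the protein was sequenced beside the starting RNA. "Higher in the IP" means a higher level in the recovered RNA than in the input RNA, each relative to the bulk of genes. No mock pull-down was analysed here, and whether the 2 libraries of a group stem from separate cultures is not labelled, so the p-values rest on a spread between libraries that may be purely technical.

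MYC proteins switch on genes of ribosome building, metabolism and cell division, and they bind their DNA site, the E-box, only when paired with MAX through a shared helix-loop-helix and leucine zipper. MNT, MXD proteins and MXI1 compete for MAX and repress the same sites by recruiting the SIN3 corepressor, and MGA, the giant of the family, ties MAX to a Polycomb complex. MLX is a second MAX-like hub, whose partners MLXIP (also called MondoA) and MLXIPL (ChREBP) respond to glucose metabolites. MYC mRNA is short-lived and its translation is tightly controlled in many cell types.

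Gene counts of P5CS IP 1 and 2 summed to 34730866 and 31489455, against 40911717 and 46339235 for input 1 and 2. Levels below are CPM, counts brought to a common library size by TMM scaling, which balances the libraries on the bulk of their genes, and levels that are compared between genes are the authors' FPKM, which also divide by gene model length. Differences are log2 of P5CS IP over input from edgeR's quasi-likelihood test over 17304 genes, and a gene was called when its p, adjusted by Benjamini-Hochberg over all of them, was under 0.05. The 4 mesenchymal markers summed to 3332 to 3596 CPM in the IPs and 4504 to 4530 CPM in the inputs, and 4 epithelial markers to 447.9 to 452.6 CPM in the IPs and 806.2 to 838.4 CPM in the inputs. VIM carried nearly all of the mesenchymal sum and was called lower (log2 difference -0.44, SE 0.0646). FN1 (0.99, SE 0.0857) and CDH2 (0.49, SE 0.102) were called higher, and ZEB1 did not pass. KRT8 and KRT18 carried nearly all of the epithelial sum, EPCAM had 0 counts in both IPs and 8 and 6 in the inputs, and CDH1 was not among the genes analysed here. KRT19 went the other way, with 70 and 82 counts in the IPs against 30 and 50 in the inputs, and did not pass (log2 difference 1.08, SE 0.520). The lung markers NKX2-1 and KRT7 summed to 0.784 and 2.13 CPM in the IPs and 1.38 and 1.07 CPM in the inputs, the other 6 of 8 being not analysed here. They lay in opposite directions and neither passed. NKX2-1 had 20 and 52 counts in the IPs against 8 and 0 in the inputs (log2 difference 3.25, SE 1.27). KRT7 had 10 and 21 counts in the IPs against 44 and 45 in the inputs (-1.36, SE 0.753). ALDH18A1, the mRNA of the precipitated protein, did not pass (log2 difference -0.19, SE 0.0961).

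The mRNAs of the network did not move as a block. MYC, MYCL, MGA and MLXIP were higher in the P5CS IP, MLX and MXI1 were lower, MAX, MNT and MXD4 did not pass, and MYCN was too scarce to test. These were 4 higher and 2 lower of 9 tested members, where 25.4% of all tested genes were called higher and 25.6% lower. Of these members, MYCL entered the test only through its IP counts, the group where it was high. The median log2 difference was 0.06 over the members and -0.01 over all tested genes. With total counts in place of TMM the split over all genes was 5604 higher and 3223 lower instead of 4400 and 4432, and the median of all genes moved to 0.25. In CPM, both IP libraries lay above both inputs for 4 of the 9 members, against 37.7% of all tested genes, and below both for 2, against 38.2%. The 6 calls held in the same direction under all 11 alternative settings. In the authors' deposited table, 4 of the 10 genes carry the mark Enriched, which 19.0% of all 21372 genes carry and which stands for an unadjusted p under 0.05 and a fold above 1.5.

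**Figure D1:**
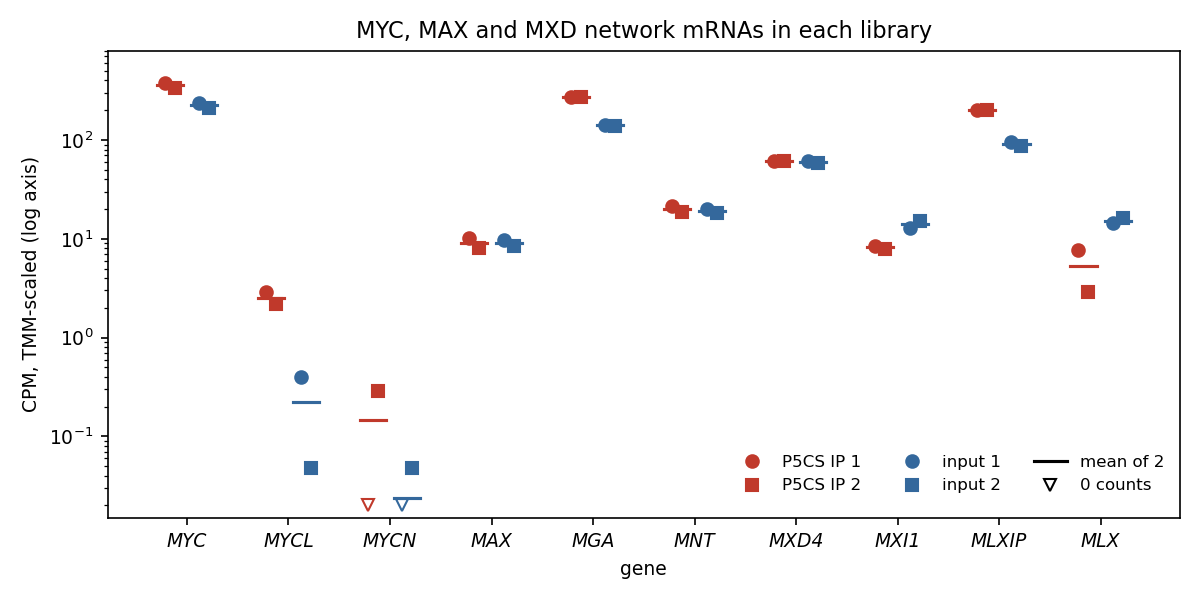
Level of each network mRNA in each library, in TMM-scaled CPM on a log axis, with P5CS IP (red) left of input (blue), circles for replicate 1, squares for replicate 2, bars for the mean of 2 and open triangles for 0 counts. Both IP points lie above both input points for MYC, MYCL, MGA and MLXIP and below them for MLX and MXI1, while those of MAX, MNT and MXD4 overlap.

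MYC itself was the most abundant member in every library. MYC (gene ID 4609; chromosome 8, 127735434 to 127742951, GRCh38) was at 380.0 and 334.1 CPM in P5CS IP 1 and 2, against 238.2 and 209.8 CPM in input 1 and 2. Each IP library was above each input, and the quotients of the 4 pairings of an IP with an input ran from 1.40 to 1.81. The fitted fold was 1.59 (95% interval 1.38 to 1.84), a log2 difference of 0.67 (SE 0.0934, adjusted p = 0.00012 by edgeR). This rise was smaller than that of many other genes: 72.1% of tested genes had a log2 difference at or below it, whereas 97.3% had a mean CPM at or below that of MYC. In the authors' deposited table MYC has a fold of 1.62 and is marked Enriched, close to that table's fold limit of 1.5. The overlap of MYC with other genes was checked in RefSeq, and no other gene span crosses it. The same check found an overlapping gene span for every other member except MNT and MLXIP.

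MYCL, a MYC paralogue first known from small cell lung cancer, had the largest log2 difference among the tested members and a very low level. MYCL (gene ID 4610; chromosome 1, 39895428 to 39901917) had 110 and 76 counts in P5CS IP 1 and 2, against 15 and 2 counts in input 1 and 2. These counts were 2.88 and 2.21 CPM in the IPs and 0.399 and 0.0477 CPM in the inputs. The input libraries differed from each other 8.36 times, so the size of the difference is poorly fixed. The filter on low counts kept MYCL only through its IP counts, the group where it was high. Its call held without the filter (adjusted p = 0.00126, edgeR). The log2 difference was 3.52 (SE 0.806, adjusted p = 0.00375, edgeR), with a 95% interval from 1.73 to 5.30. It stood at 5.64 without input 1 and at 2.66 without input 2, and the call held in both. Most low counts are even, as they would be if each read pair were counted once per mate, and on halved counts of 93 and 8 the ratio of IP to input was 12.7 (95% counting interval 6.20 to 30.4, which covers counting error only). The RefSeq span of MYCL overlaps that of MYCL-AS1, and as no source used here gives the strand setting of the counting, reads of these genes cannot be told apart.

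MYCN, the paralogue known from neuroblastoma, was close to undetected. MYCN (gene ID 4613; chromosome 2, 15940550 to 15947004) had 0 and 10 counts in P5CS IP 1 and 2, against 0 and 2 counts in input 1 and 2. The 2 groups overlapped, and the floor of 3 counts equals 0.0784 and 0.0874 CPM in the IPs and 0.0798 and 0.0716 CPM in the inputs. The filter on low counts left MYCN out, and without the filter its log2 difference was 2.42 (SE 2.78) with an adjusted p of 0.548 by the same edgeR test. The ratio on halved counts of 5 and 1 was 5.47 with a 95% counting interval from 0.613 to 259. A difference in MYCN was therefore not detectable at this depth.

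MAX, the partner that every MYC protein needs, was not distinguishable between the groups. MAX (gene ID 4149; chromosome 14, 65006101 to 65102695) was at 10.2 and 8.04 CPM in P5CS IP 1 and 2, against 9.63 and 8.40 CPM in input 1 and 2. The IP values enclosed the input values. The log2 difference was 0.02 (SE 0.216, adjusted p = 0.954, edgeR), and its 95% interval ran from -0.46 to 0.50, which leaves room for a fold between 0.727 and 1.41. Its sign turned under several settings, to -0.16 without P5CS IP 1, to -0.07 without input 2 and to -0.08 with the length trend removed. The span of MAX overlaps those of FNTB, a farnesyltransferase subunit gene, and of CHURC1-FNTB, MIR4706 and MAX-AS1. FNTB had 165 and 154 counts in the IPs and 180 and 381 counts in the inputs and did not pass either (log2 difference -0.66, SE 0.321). Reads of MAX and these neighbours cannot be told apart without the strand setting.

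Among the MAX partners MGA, MNT, MXD4 and MXI1, MGA had the highest CPM and the smallest SE of the log2 difference. In FPKM, MGA was below MXD4 in the inputs (8.34 against 14.1). MGA, a very large repressor that is recurrently inactivated in lung adenocarcinoma (gene ID 23269; chromosome 15, 41621224 to 41769940), was at 275.0 and 271.6 CPM in P5CS IP 1 and 2, against 142.3 and 138.6 CPM in input 1 and 2. The libraries of each group lay within 1.03 times of each other, and all 4 quotients of an IP and an input fell between 1.91 and 1.98. The fitted fold was 1.95 (95% interval 1.73 to 2.19), a log2 difference of 0.96 (SE 0.0777, adjusted p = 2.0e-06, edgeR). MGA has a gene model of 15346 nt, longer than that of 98.7% of tested genes. With the trend of the log2 difference on gene model length removed, the value was 0.40 and the call held (adjusted p = 0.00126 by the same edgeR test).

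The repressors MNT and MXD4, which pair with MAX and also with MLX, did not pass in either direction. MNT (gene ID 4335; chromosome 17, 2384073 to 2401060) was at 21.5 and 18.7 CPM in P5CS IP 1 and 2, against 20.1 and 18.5 CPM in input 1 and 2. MXD4 (gene ID 10608; chromosome 4, 2247432 to 2262109) was at 60.7 and 61.3 CPM in the IPs, against 61.5 and 58.0 CPM in the inputs. For both genes the groups overlapped. The log2 differences were 0.06 for MNT (95% interval -0.28 to 0.40) and 0.03 for MXD4 (95% interval -0.18 to 0.24), so for MXD4 a fold beyond 0.880 to 1.18 lies outside the interval. With total counts in place of TMM, MXD4 was called higher at 0.30 (adjusted p = 0.0272, edgeR), which is 0.04 above the median of all genes on that scale. The signs of both genes turned with the length trend removed, to -0.11 for MNT and -0.05 for MXD4.

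MXI1, the MXD protein also known as MXD2, was lower in the P5CS IP. MXI1 (gene ID 4601; chromosome 10, 110207605 to 110287365) was at 8.55 and 7.95 CPM in P5CS IP 1 and 2, against 12.8 and 15.3 CPM in input 1 and 2. Both IP values were below both input values, with quotients from 0.520 to 0.668. The log2 difference was -0.77 (SE 0.192, adjusted p = 0.00624, edgeR), a fold of 0.587 (95% interval 0.437 to 0.789). The adjusted p was nearest to the threshold with total counts, at 0.04999 (-0.50), and was 0.0433 without input 2 (-0.63), both by edgeR.

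The MLX arm of the network split in opposite directions. MLXIP (gene ID 22877; chromosome 12, 122078756 to 122147344) was at 199.5 and 199.3 CPM in P5CS IP 1 and 2, against 94.4 and 86.0 CPM in input 1 and 2. The IP libraries were nearly equal, and the 4 quotients ran from 2.11 to 2.32. MLXIP rose 2.21-fold (95% interval 1.94 to 2.52), a log2 difference of 1.14 (SE 0.0859, adjusted p = 1.14e-06, edgeR), the largest fold among the 4 members with the highest mean CPM. With the length trend removed it was 0.72.

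MLX, the obligate partner of MLXIP, was the member that fell furthest. MLX (gene ID 6945; chromosome 17, 42567100 to 42573203) was at 7.74 and 2.91 CPM in P5CS IP 1 and 2, against 14.4 and 16.2 CPM in input 1 and 2. Both IP values were below both inputs, but the IP libraries differed from each other 2.66 times, the widest spread within the IP among the tested members. The log2 difference was -1.52 (SE 0.353, adjusted p = 0.00412, edgeR), a fold of 0.350 (95% interval 0.204 to 0.601). It was -2.39 without P5CS IP 1 and -0.95 without P5CS IP 2, and the call held in both. The span of MLX overlaps that of PSMC3IP, a meiotic recombination factor gene, which was lower too, at 1.23 and 1.89 CPM in the IPs against 4.26 and 3.44 CPM in the inputs (log2 difference -1.30, SE 0.402). Reads of these neighbours cannot be told apart without the strand setting. MLXP1, a pseudogene of MLX, had 114 and 139 counts in the IPs and 220 and 221 in the inputs and did not pass (log2 difference -0.66, SE 0.296). How the counting divided reads that fit both MLX and MLXP1 was not tested, so the value of MLX is uncertain to that extent.

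**Figure D2:**
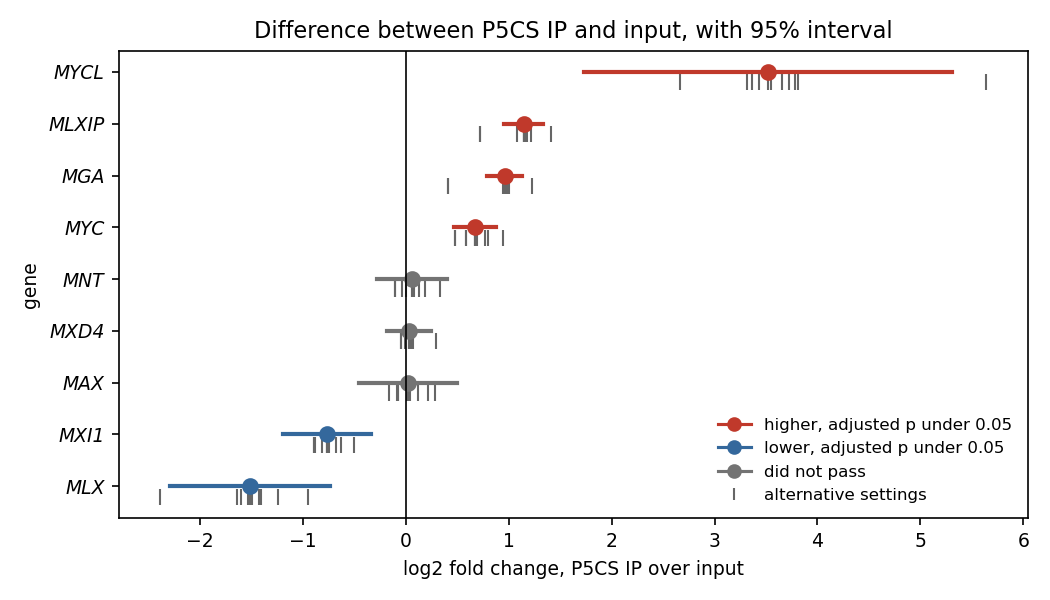
Log2 difference of P5CS IP over input for the 9 tested members, with 95% intervals (lines), calls by colour and the values under the alternative settings (ticks below each line). The intervals of MYCL, MLXIP, MGA and MYC lie above 0, those of MXI1 and MLX below it, and the interval of MYCL, from 1.73 to 5.30, is the widest.

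Per length of gene model, MYC mRNA far exceeded that of its partner in both kinds of library. In FPKM, MYC stood at 73.1 ± 7.18 in the P5CS IP and 38.2 ± 3.85 in the input (SD, n = 2 each), and MAX at 2.44 ± 0.429 in the IP and 2.0 ± 0.215 in the input. FPKM carry no TMM scaling. On total counts the median log2 difference of all genes was 0.25, so FPKM are read here between genes within a group. In the IPs MYC was followed by MLXIP (23.7 ± 0.195 FPKM), MGA (19.5 ± 0.314), MXD4 (17.3 ± 0.0134) and MNT (4.44 ± 0.466), and each of these lay outside the range of its neighbour. MAX, MLX (2.26 ± 1.46 FPKM) and MXI1 (2.04 ± 0.119) came next, the range of MLX overlapping those of MAX and MXI1, and MYCL (0.575 ± 0.110) and MYCN (0.0607 ± 0.0858) came last. In the inputs the order after MYC was MXD4 (14.1 ± 0.743 FPKM), MLXIP (8.92 ± 0.690), MGA (8.34 ± 0.252), MLX (5.38 ± 0.385), MNT (3.54 ± 0.259), MXI1 (2.88 ± 0.330) and MAX, with MLXIP and MGA overlapping. Below them MYCL (0.0422 ± 0.0471) and MYCN (0.00825 ± 0.0117) overlapped as well. MXD4 thus ranked above MLXIP and MGA in the input and below both in the IP, and MLX ranked above MNT and MXI1 in the input while its range enclosed that of MXI1 in the IP.

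Ratios of 2 genes within a library do not depend on the scaling of the library. The FPKM ratio of MYC to MAX was 28.5 and 31.9 in P5CS IP 1 and 2, against 19.0 and 19.2 in input 1 and 2. That of MGA to MAX was 7.20 and 9.05 in the IPs, against 3.96 and 4.42 in the inputs. Both ratios were higher in each IP than in each input. The ratio of MXD4 to MAX was 6.30 and 8.09 in the IPs, against 6.78 and 7.32 in the inputs, so the groups overlapped, as they did for MNT to MAX. For MLXIP to MLX the ratio was 7.24 and 19.2 in the IPs, against 1.84 and 1.49 in the inputs, the widest shift among the 10 ratios computed, at 2.83 on the log2 scale. With 2 libraries against 2, an exact permutation test cannot give a two-sided p below 0.333, so no test of these ratios is given.

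MYC can also be set beside PVT1, the long non-coding RNA gene next to it on chromosome 8. PVT1 was at 15.2 and 13.7 CPM in P5CS IP 1 and 2, against 17.3 and 16.1 CPM in input 1 and 2, and did not pass (log2 difference -0.20, SE 0.163, adjusted p = 0.33, edgeR). The IP values were nevertheless below both inputs, and with the length trend removed PVT1 was called lower at -0.78 (adjusted p = 0.00226, edgeR), its gene model being 17539 nt long. The FPKM ratio of MYC to PVT1 was 81.7 and 79.7 in the IPs, against 45.1 and 42.7 in the inputs.

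Gene model length moved with the difference between IP and input, and the members differ in length. Over all tested genes the trend of the log2 difference rose with length, from -0.59 at 1000 nt to 0.17 at 5000 nt and 0.45 at 10000 nt. The 2 longest members, MGA (15346 nt) and MLXIP (9216 nt), were both higher, and MLX, at 2587 nt the shortest tested member, was lower. MYC (5350 nt), MYCL (4852 nt), MNT (4970 nt) and MXI1 (4442 nt) have similar lengths, and their log2 differences were 0.67, 3.52, 0.06 and -0.77. Relative to the trend at its own length, MYC was 0.47 higher, MYCL 3.36 higher, MLXIP 0.72 higher and MGA 0.40 higher. MXI1 was at -0.89 and MLX at -1.41 relative to the trend. The fit with the trend removed called the same 6 members in the same directions. The part of length in these differences was not tested beyond that fit.

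**Figure D3:**
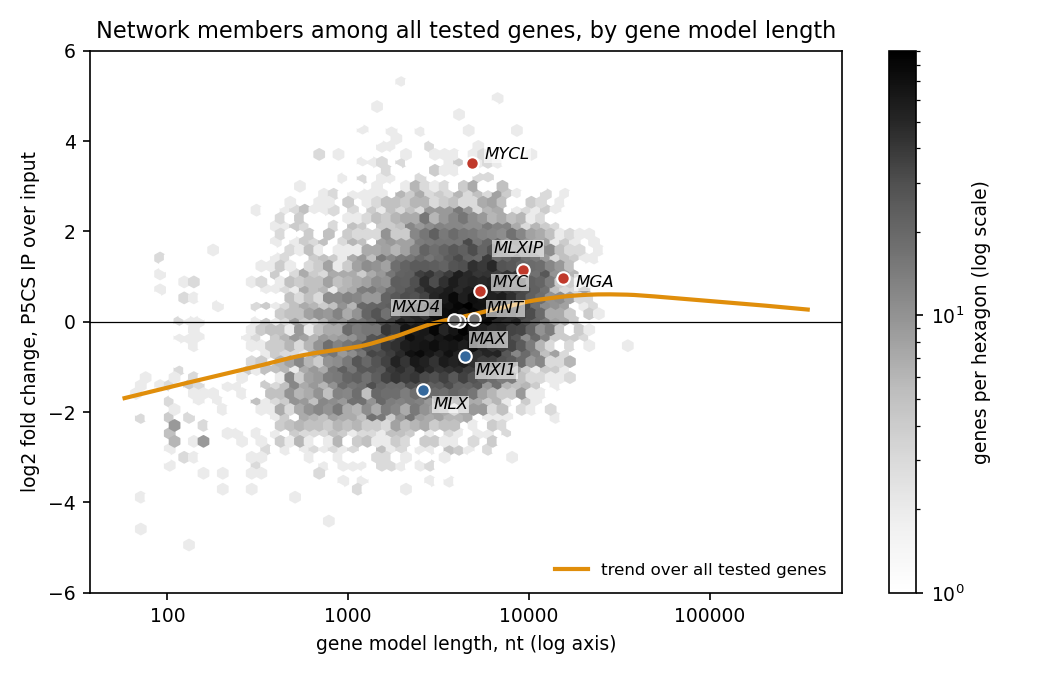
Log2 difference of P5CS IP over input against gene model length (log axis) for all 17304 tested genes (grey hexagons, darker for more genes), with the trend over those genes (orange line) and the tested members coloured by call. MYCL, MLXIP, MYC and MGA lie above the line, MAX, MNT and MXD4 near it, and MXI1 and MLX below it.

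The genes whose profile over the 4 libraries was most like that of MYC were DNMBP, CTDSP2, PXDN, ABCA3 and LGMN. Likeness was the root mean square difference of log2 CPM, each gene centred on its own mean, among 977 genes with a mean CPM within 2-fold of MYC. The distances were 0.0484 for DNMBP, a scaffold that activates CDC42, and 0.0637 for LGMN, a lysosomal protease, with the other 3 between them. Their log2 differences ran from 0.62 for DNMBP to 0.74 for CTDSP2, a phosphatase of RNA polymerase II. Values near that of MYC follow from the selection, which used the same 4 libraries.

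Of the 3 network genes outside the members, MXD3 was higher, MLXIPL was lower and MXD1 did not pass. MXD3, an MXD repressor linked to proliferating cells, was at 29.7 and 35.8 CPM in P5CS IP 1 and 2, against 16.3 and 19.9 CPM in input 1 and 2 (log2 difference 0.86, SE 0.157, adjusted p = 0.00086, edgeR). MLXIPL had 6 and 2 counts in the IPs, against 20 and 40 in the inputs, and the filter kept it only through the inputs, where it was high. Its log2 difference of -2.74 (SE 1.05, adjusted p = 0.0492, edgeR) passed narrowly. That call ended with total counts, DESeq2, no filter and the replicate block (also with the length trend removed in the same fit), and without each of the 4 libraries in turn (-3.60 to -2.19). With halved counts MLXIPL was not called either. MXD1 was at -0.32 (SE 0.202).

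The coactivator list, which holds other MYC cofactors such as ZBTB17, CDK9 and CCNT1 beside chromatin enzymes, had calls in both directions. The counts of this and the following lists stand against the 25.4% of all tested genes called higher and the 25.6% called lower. The lists were chosen with earlier results of these data known, so no conclusion is drawn from a share above these. Of 16 tested, 7 were higher and 6 lower, leaving 3 that did not pass, and the median log2 difference was -0.02. The highest were the histone acetyltransferases EP300 (1.58, SE 0.0886) and CREBBP (1.48, SE 0.0760), and the lowest were SMARCB1 of the SWI/SNF remodeller (-0.95, SE 0.0942) and the helicase RUVBL2 (-0.73, SE 0.0822). In the SIN3 and NCOR corepressor list, 4 of 15 were higher and 6 lower (median -0.23). The share called higher, 26.7%, was near that of all tested genes, and the share called lower was 40.0%. SIN3B (0.52, SE 0.0955) and NCOR1 (0.48, SE 0.0771) were the highest, and both calls ended with the length trend removed, at 0.21 and -0.02, as the list's calls dropped to 6 of 15. SAP18 (-1.32, SE 0.139) and BRMS1 (-1.01, SE 0.120), small subunits of the complex, were the lowest.

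Of 10 tested partners of MGA in the PCGF6 Polycomb complex, 6 were lower, 1 was higher and 3 did not pass (median -0.44). Their difference from MGA was not tested. WDR5, among the lower ones (-0.37, SE 0.103), is also on the coactivator list and is counted in both. RNF2, the ubiquitin ligase of the complex, averaged 6.63 ± 1.71 CPM over the IPs, against 15.3 ± 0.951 CPM over the inputs (SD, n = 2 each), at -1.20 (SE 0.220), and YAF2 was at -1.17 (SE 0.223). L3MBTL2 was the higher one (0.42, SE 0.145), and its call ended without P5CS IP 1 (0.36), without input 1 (0.40) and without input 2 (0.45; adjusted p = 0.14, 0.123 and 0.0816, edgeR).

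Among enzymes that set MYC protein stability, 6 of 16 were higher and 6 lower (median -0.03). With the length trend removed the calls of this list dropped to 8 of 16, and to 10 with the replicate block added. FBXW7, the ubiquitin ligase adaptor that marks phosphorylated MYC for destruction, averaged 30.9 ± 1.16 CPM over the IPs, against 9.99 ± 0.764 CPM over the inputs (SD, n = 2 each), at 1.63 (SE 0.151). PPP2R5A, a phosphatase subunit, was at 1.65 (SE 0.124). SKP2, another ubiquitin ligase adaptor, was among the lower ones (-1.47, SE 0.173).

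The list of genes reported to act on MYC transcription or MYC mRNA, which holds the non-coding PVT1 beside protein-coding genes, had calls in 1 direction. Of 15 tested, 12 were lower and 0 higher (0 higher also at an unadjusted p under 0.05 in edgeR, and 0 by DESeq2), with a median of -0.87. The cap-binding factor EIF4E averaged 3.57 ± 0.137 CPM over the IPs, against 14.2 ± 1.87 CPM over the inputs (SD, n = 2 each), at -1.99 (SE 0.220), and the RNA-binding protein gene YBX1 was at -1.82 (SE 0.0850). The 3 that did not pass were IGF2BP1, IGF2BP3 and PVT1. Of 23 tested MYC target genes, 14 were lower and 4 higher (median -0.60). EIF4E, which is on both lists, and FBL, the rRNA methylase fibrillarin (-1.74, SE 0.0762), were the lowest, and the telomerase gene TERT (1.70, SE 0.269) and the glutamine carrier gene SLC1A5 (1.02, SE 0.0743) the highest. CDKN1A, which MYC represses in many cells, was lower (-0.59, SE 0.134), a call that ended with total counts (-0.33).

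None of the tested targets of MLXIP and MLX was called. TXNIP, the best known of them, had 42 and 40 counts in P5CS IP 1 and 2, against 20 and 20 counts in input 1 and 2, a log2 difference of 1.16 (SE 0.691, adjusted p = 0.191, edgeR). Of 3 tested targets 0 were called (0 also at an unadjusted p under 0.05 in edgeR, and 0 by DESeq2). With total counts in place of TMM, 1 of the 3 was called. The other two, named after their values were seen, were the arrestin-domain gene ARRDC4 and the zinc finger factor gene KLF10. ARRDC4 was scarce, with 10 and 30 counts in the IPs against 4 and 12 in the inputs (95% interval of the log2 difference -0.94 to 3.94). KLF10 was well covered, with 1034 and 970 counts in the IPs against 1001 and 928 in the inputs (log2 difference 0.18, SE 0.141). Of 8 other E-box factors of the same protein class, 1 was higher, SREBF1 (0.48, SE 0.0663), and 2 were lower, USF2 (-1.07, SE 0.0935) and TFE3 (-0.84, SE 0.1002), with 5 that did not pass and a median of 0.07. These shares, 12.5% higher and 25.0% lower, were not above those of all tested genes.

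**Figure D4:**
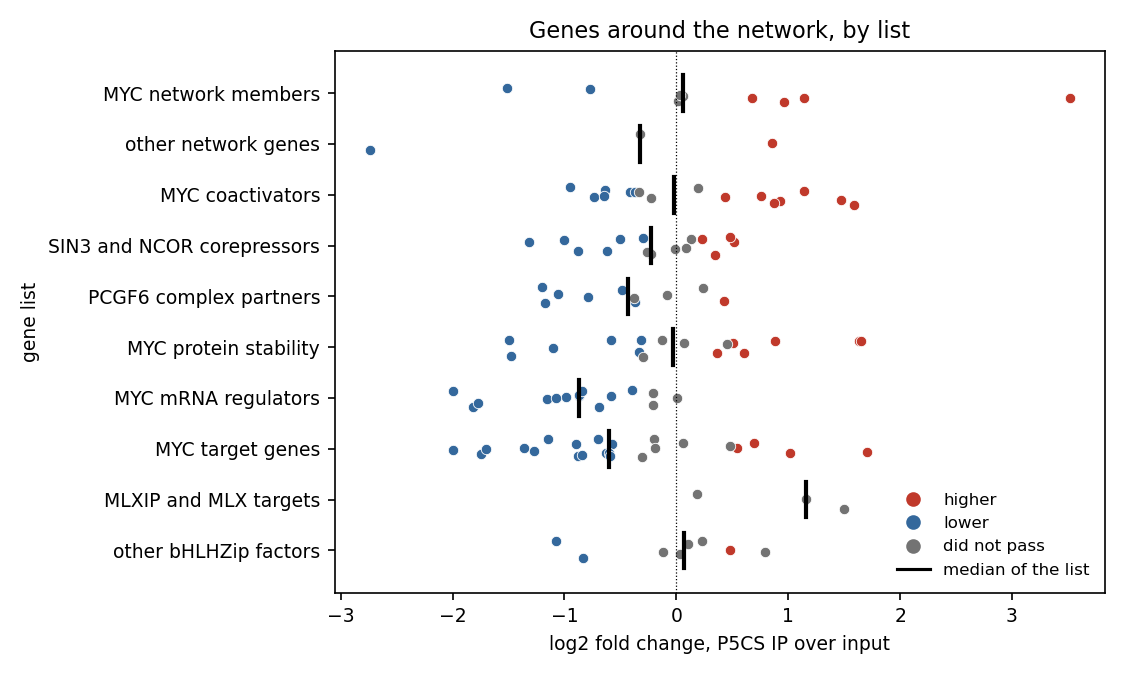
Log2 difference of P5CS IP over input for the tested genes of the network and of 9 surrounding lists, 1 point per gene, coloured red for higher, blue for lower and grey for not passed, with the median of each list as a black bar. The MYC mRNA regulators have no red point. The list labelled MYC coactivators, which holds other cofactors too, and the stability enzymes spread to both sides of 0.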

How the data were processed

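The data were 1 table of 4 libraries. Per the file headers it holds raw counts for each gene, used as deposited after 1 repeated symbol was dropped, and the authors' FPKM, which with the counts gave the gene model lengths. The deposited table also holds, per the file headers, a normalised mean (a signal), a log2 fold change with its error, a test score and p-values of the authors' comparison. The tools STAR 2.7.10a, fastp 0.23.2, DESeq2 and featureCounts and the build hg38 are named, without settings, in the submitters' processing notes. The sample titles speak of P5CS and input, the design text of LACE-seq with an IgG control, and the titles were followed; the columns carry the word Cyto, which no label explains. Between 85.8 and 86.4% of counts from 1 to 30 were even.

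The test on counts was edgeR 4.0.16 in R 4.3.3 (filterByExpr, which left out 4068 genes, TMM factors of 0.904 to 1.10, glmQLFit, glmQLFTest, no replicate term, 2 residual degrees of freedom). CPM were computed over TMM-scaled totals of the tested genes. The length trend was a lowess curve (span 0.3) entered as offsets. The procedure was tested on simulated data. Chi-square per degree of freedom was 21.2 between the IPs and 20.2 between the inputs, so no library repeats another. Gene identifiers were matched to RefSeq (GRCh38.p14) for 18055 of 18120 genes that had one. The members and lists were chosen with earlier results of these data known. Named were all members, the 2 highest and 2 lowest called genes of each other list, PVT1, TXNIP, CDKN1A, the 5 genes nearest to MYC, and ALDH18A1; some genes that this rule selects are not reported here. Alternatives were total counts, DESeq2 1.42.0, no filter, the replicate block, the length trend removed with and without the block, halved counts, and each library left out.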

Additional observations from a re-analysis of the deposited data

How the results depend on the processing

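The 6 calls among the members and their directions were kept under all 11 alternatives. The members that had not passed changed sign at values near 0. With the length trend removed MAX was at -0.076, MNT at -0.11 and MXD4 at -0.046, and with the replicate block added they were at -0.084, -0.11 and -0.045. Leaving out 1 library gave -0.16 to 0.21 for MAX, -0.038 to 0.19 for MNT and -0.011 to 0.072 for MXD4. With total counts, MXD4 was called higher (0.30), PVT1 (0.062) and ALDH18A1 (0.075) changed sign, and 1 gene was called among the other network genes, 1 among the targets of MLXIP and MLX and 5 among the other E-box factors. NCOR1 changed sign with the length trend removed, without the block (-0.018) and with it (-0.017), and the corepressor list then had 6 calls without the block. The other network genes had 1 call with DESeq2, no filter, the replicate block and halved counts, and 1 whichever library was left out, since MLXIPL dropped out, and 3 with the length trend removed. The replicate numbers are not stated to pair libraries. Deviations of same-numbered libraries correlated at 0.0123, and with the replicate block 4449 genes were called higher and 4487 lower, and MYC stood at 0.67. Where a library was left out, its group held 1 library, assumed to vary like the other group. Depth limits MYCN, MYCL, MLXIPL and TXNIP, which had few counts, and the other causes of these shifts were not tested.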
